A study of Mus musculus with 6 samples.

Results

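The 7 genes that mark granulocyte/monocyte progenitors (GMPs), Ms4a3, Igsf6, Clec12a, Fcgr3, Ly6c2, Mgst1 and Nkg7, were taken by gene symbol from the 27198 genes of the deposited table, and all 7 were listed. They were followed in RNA of hematopoietic stem cells (HSCs) sorted from mice given ferulic acid (FA), a plant phenolic acid, to see how long-term FA alters the transcriptome of HSCs. All mice were male wild type C57BL/6, 8 to 10 weeks of age, and none was irradiated. Ctrl mice received the solvent, and FA at 50 mg/kg was injected intraperitoneally into l-FA (long-term FA) mice each day for 30 days. HSCs were sorted as lineage-, Sca1+, c-Kit+, CD34- and CD135- cells, and cDNA made from their RNA by SMART-Seq amplification was sequenced as 3 Ctrl and 3 l-FA libraries. The number of mice behind a library was not stated, so p-values measure the spread between these libraries, which may be technical.

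GMPs arise downstream of HSCs and give rise to neutrophils and monocytes, and they are gated as CD16/32-high cells, an antibody signal to which the products of Fcgr3 and Fcgr2b contribute. Ms4a3, a membrane-spanning protein of the MS4A family, is a lineage-tracing marker of GMPs and their progeny. The other genes encode an immunoglobulin superfamily membrane protein (Igsf6), an inhibitory lectin receptor (Clec12a), an activating IgG receptor (Fcgr3), a GPI-anchored surface protein (Ly6c2), a membrane-bound glutathione transferase (Mgst1) and a membrane protein of cytotoxic granules (Nkg7).

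RNA of 6 of the 7 genes was lower in l-FA HSCs than in Ctrl HSCs, and Mgst1 did not pass the test. Igsf6 and Ms4a3 were 6.63-fold and 6.61-fold lower, Fcgr3 5.06-fold, Ly6c2 4.78-fold and Clec12a 2.31-fold. Nkg7 was 1.81-fold lower, which is short of the 2-fold limit. By the edgeR quasi-likelihood test with Benjamini-Hochberg adjustment over 16520 genes tested, 5 of the 7 were lower at an adjusted p under 0.05 and more than 2-fold, against 5.10% of all genes tested, and 0 were higher, against 6.68%. On adjusted p alone 6 of 7 were lower, against 25.0% of all genes tested, 0 were higher, against 25.5%, and 6 passed in either direction, against 50.5%. For the same 6 genes every l-FA library lay below every Ctrl library, which held for 29.9% of all genes tested, and for 0 genes every l-FA library lay above, against 30.4%. The median log2 fold change (l-FA over Ctrl) was -2.26 over the 7 genes and 0.0035 over all genes tested. The 7 genes were chosen with earlier results of these data known, so the shares beside them are description only. Summed, the 7 genes took 1494 to 1615 CPM (counts scaled to a common library size) in Ctrl and 546 to 555 CPM in l-FA libraries. In bulk RNA, fewer cells that express a gene and less RNA per cell cannot be told apart. In the plot of levels by library, the lower l-FA points of 6 genes and the mixed points of Mgst1 are seen.

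**Figure D1:**
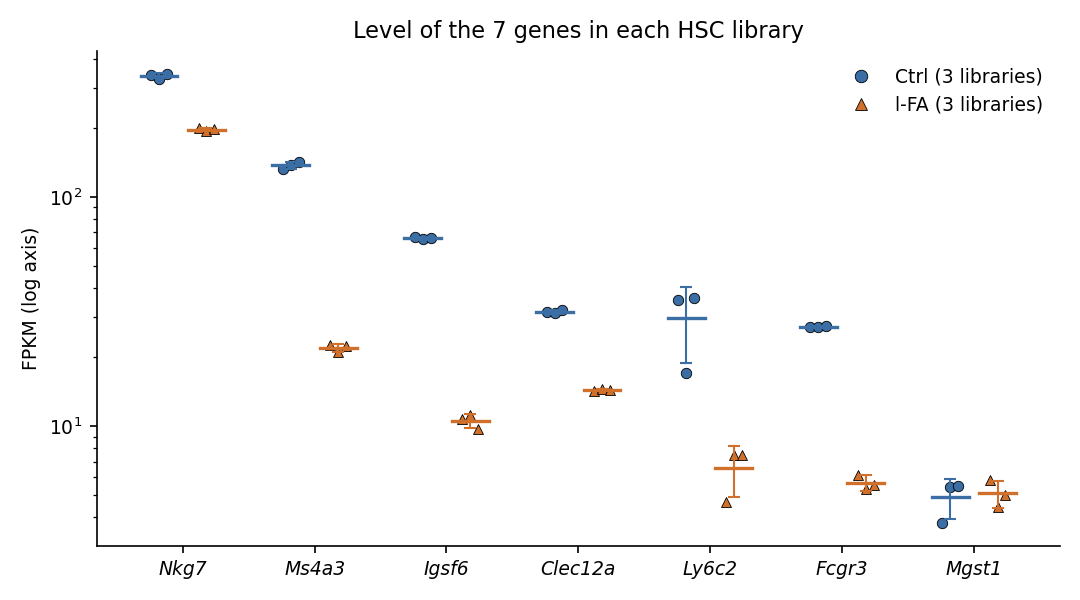
Level of each of the 7 genes (FPKM, a level per gene length, log axis) in the 3 Ctrl and 3 l-FA libraries, where each point is a library, each line a group mean and the whiskers 1 SD. The l-FA points lie below all Ctrl points for 6 genes, from Nkg7 with an l-FA mean of 197 FPKM down to Fcgr3 with 5.66 FPKM, and the Mgst1 points overlap.

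Total counts were 19287735 to 20380610 per library, and 22467 to 22954 genes had at least 1 count. Kit and Ly6a, whose proteins the gate required, averaged 80.0 and 12.7 FPKM in Ctrl and 91.6 and 22.8 FPKM in l-FA. Cd34 averaged 133 FPKM in Ctrl and 165 FPKM in l-FA, and Flt3, which encodes CD135, averaged 119 and 197 FPKM, although the sort was negative for both proteins. All 4 sort genes were higher in l-FA by adjusted p, against 25.5% of all genes tested, and none by more than 2-fold. Their log2 fold changes were 0.12 for Kit, 0.23 for Cd34, 0.64 for Flt3 and 0.77 for Ly6a, which encodes Sca1.

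Letters upstream of the genes are given for the members whose change was largest, for Clec12a and for Mgst1, so that promoters of genes that fell and of the gene that did not pass can be read side by side. The windows are the 250 bases before the annotated start in RefSeq (GRCm38.p6), 5′ to 3′ on the gene's strand, at chr19:11640852-11641101 (minus strand, Ms4a3), chr7:121074531-121074780 (minus, Igsf6), chr6:129349994-129350243 (plus, Clec12a), chr1:171059404-171059653 (minus, Fcgr3) and chr6:138140277-138140526 (plus, Mgst1). Capitals mark matches, on either strand, to any of 4 motifs of myeloid and other blood transcription factors. The motif searched for PU.1 was GAGGAAG. For the C/EBP factors it was TTNCNNAA, where N is any base. For the RUNX factors it was TGTGGT. The motif searched for the GATA factors was AGATAA.
Ms4a3: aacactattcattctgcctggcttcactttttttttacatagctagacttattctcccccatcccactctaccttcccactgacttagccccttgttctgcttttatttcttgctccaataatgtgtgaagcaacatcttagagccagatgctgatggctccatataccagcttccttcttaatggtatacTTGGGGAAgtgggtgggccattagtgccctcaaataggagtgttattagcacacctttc
Igsf6: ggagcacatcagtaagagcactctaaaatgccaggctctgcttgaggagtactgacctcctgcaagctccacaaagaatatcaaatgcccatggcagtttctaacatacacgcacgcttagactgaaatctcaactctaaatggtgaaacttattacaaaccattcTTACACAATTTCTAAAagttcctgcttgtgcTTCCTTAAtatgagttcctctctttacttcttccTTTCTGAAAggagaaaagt
Clec12a: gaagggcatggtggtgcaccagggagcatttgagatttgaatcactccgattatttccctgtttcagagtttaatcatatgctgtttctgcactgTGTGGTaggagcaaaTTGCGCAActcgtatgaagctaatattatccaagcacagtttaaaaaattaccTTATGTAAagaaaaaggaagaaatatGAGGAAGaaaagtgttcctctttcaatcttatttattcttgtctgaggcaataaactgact
Fcgr3: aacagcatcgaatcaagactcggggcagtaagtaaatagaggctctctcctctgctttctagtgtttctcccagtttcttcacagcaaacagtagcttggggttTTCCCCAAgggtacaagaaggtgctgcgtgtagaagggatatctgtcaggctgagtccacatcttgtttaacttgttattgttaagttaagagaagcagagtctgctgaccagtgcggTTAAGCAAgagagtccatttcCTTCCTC
Mgst1: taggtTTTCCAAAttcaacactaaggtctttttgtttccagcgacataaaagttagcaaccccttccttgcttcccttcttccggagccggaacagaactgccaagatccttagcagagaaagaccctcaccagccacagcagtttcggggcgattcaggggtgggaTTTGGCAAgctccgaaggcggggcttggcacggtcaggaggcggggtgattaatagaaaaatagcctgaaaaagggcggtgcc

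RefSeq windows of this kind were found for all 7 genes. The C/EBP letters stood in the first window of 6 of them, all but Nkg7, against 36.8% of 32851 windows of the same length. Clec12a held TTGCGCAA at positions -140 to -133, where the base before the start is -1, which matches on both strands, and GAGGAAG at -61 to -55. Igsf6 held 5 C/EBP matches, which adjoin or overlap in part, and Ms4a3 held 1, TTGGGGAA at -59 to -52. The first window of Mgst1 also held 2, TTTCCAAA at -245 to -238 and TTTGGCAA at -83 to -76. The PU.1 letters stood in 3 of 7 first windows (Fcgr3, Clec12a and Ly6c2) against 10.6% of windows. A second window of Mgst1, not printed here, held CTTCCTC, the PU.1 letters on the other strand, at -235 to -229, and further C/EBP matches. By any window 4 of 7 genes held the PU.1 letters, against 12% of genes. First windows held the RUNX letters in 3 genes (Clec12a, Ly6c2 and Nkg7) against 14%, and the GATA letters in 0 against 9.99%. A match of letters is not a bound site, and these libraries hold no measure of binding.

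Ms4a3 (ENSMUSG00000024681, chr19:11606860-11618215), whose product regulates the cell cycle of blood progenitors, had 7121, 7196 and 7882 counts in Ctrl libraries 1, 2 and 3. The l-FA libraries had 1249, 1116 and 1182 counts. All 3 l-FA libraries were below all Ctrl libraries, and libraries of a group lay close together. The level fell from 384 ± 12.3 CPM (SD, n = 3) to 58.1 ± 2.13 CPM, a log2 fold change of -2.72 (SE 0.040, 95% interval -2.82 to -2.63, edgeR adjusted p = 6.1e-07). Only 251 of the 16520 genes tested had a lower log2 fold change.

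Igsf6 (ENSMUSG00000035004, chr7:120663290-120673795), a myeloid membrane protein with an immunoglobulin domain, had 2887, 2735 and 2929 counts in Ctrl. It had 475, 476 and 412 counts in l-FA. Again no l-FA library reached the lowest Ctrl library. The level fell from 148 ± 2.12 CPM to 22.3 ± 1.57 CPM (n = 3 each), a log2 fold change of -2.73 (SE 0.057, edgeR adjusted p = 1.6e-06). The gene lies wholly within Mettl9, a methyltransferase gene, and the GENCODE M21 annotation puts them on opposite strands. The strand setting of the counting was not given in the sources used here, so reads from the shared 10506 bases could be assigned to either gene. Mettl9 itself had 1085, 1055 and 935 counts in Ctrl and 1152, 1021 and 977 in l-FA, with overlapping groups and a log2 fold change of -0.05 (SE 0.086, edgeR adjusted p = 0.673). On the FPKM scale the level ratio of Igsf6 to Mettl9 within a library was 6.47, 6.30 and 7.61 in Ctrl and 1.0, 1.13 and 1.02 in l-FA. The ratio was thus 6.44-fold lower in l-FA, with groups apart (exact permutation test, two-sided p = 0.1). With 3 against 3 libraries 0.1 is the smallest p this exact test can give, so no ratio could reach 0.05.

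Clec12a (ENSMUSG00000053063, chr6:129319654-129342266), a C-type lectin receptor with an inhibitory ITIM motif, had 4027, 3900 and 4268 counts in Ctrl. The l-FA libraries had 1895, 1850 and 1819. The groups were apart, with a narrow spread in each. The level was 211 ± 2.79 CPM in Ctrl and 91.2 ± 1.0 CPM in l-FA (n = 3 each), a log2 fold change of -1.21 (SE 0.026, edgeR adjusted p = 1.8e-06). Ptpn6, which encodes the phosphatase SHP-1 that such ITIMs recruit, did not pass (log2 fold change 0.29, SE 0.107, edgeR adjusted p = 0.062). The FPKM ratio of Clec12a to Ptpn6 was 0.462, 0.436 and 0.496 in Ctrl and 0.177, 0.184 and 0.139 in l-FA, 2.81-fold lower with groups apart (exact permutation p = 0.1).

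Fcgr3 (ENSMUSG00000059498, chr1:170878743-170892504), the IgG receptor CD16, had 2048, 1998 and 2130 counts in Ctrl. It had 479, 397 and 414 counts in l-FA. Every l-FA library was below the Ctrl libraries, which differed little from each other. The level fell from 107 ± 0.180 CPM to 21.1 ± 1.54 CPM (n = 3 each), a log2 fold change of -2.34 (SE 0.058, edgeR adjusted p = 2.4e-06). The SD of the 3 Ctrl libraries, 0.169% of the mean, was under the counting error of 2.20%. Fcer1g, the signalling chain that Fcgr3 needs at the surface, was higher in l-FA (log2 fold change 0.23, SE 0.069, edgeR adjusted p = 0.031). Fcgr3 stood at 1.42, 1.31 and 1.29 times the FPKM of Fcer1g in Ctrl and at 0.226, 0.215 and 0.235 times in l-FA. That ratio was 5.94-fold lower in l-FA with groups apart (exact permutation p = 0.1).

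Fcgr2b, the inhibitory IgG receptor CD32, was lower too, with 5.04 ± 0.950 FPKM in Ctrl and 2.49 ± 0.260 FPKM in l-FA (log2 fold change -1.10, SE 0.156, edgeR adjusted p = 0.00144). Of the 50-base stretches in Fcgr3 transcripts, 9.58% also occur in Fcgr2b, so how reads were split between them is uncertain there. The ratio of Fcgr3 to Fcgr2b was 5.11, 4.64 and 6.85 in Ctrl and 2.64, 1.90 and 2.36 in l-FA on the FPKM scale. This ratio of the activating to the inhibitory receptor was 2.40-fold lower in l-FA, with groups apart (exact permutation p = 0.1).

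Ly6c2 (ENSMUSG00000022584, chr15:74980007-74983819) encodes the Ly6C antigen of monocytes and their precursors. Its counts were 3071, 1437 and 3215 in Ctrl and 413, 641 and 636 in l-FA. Ctrl library 2 lay well below the other Ctrl libraries, and l-FA library 1 was the lowest of its group. The groups still did not overlap. The level was 133 ± 48.3 CPM in Ctrl and 27.8 ± 7.06 CPM in l-FA (n = 3 each), a log2 fold change of -2.26 (SE 0.33, 95% interval -3.05 to -1.46, edgeR adjusted p = 0.00166). The SD was 36.4% of the mean in Ctrl and 25.4% in l-FA, where counting error gives 1.97% and 4.21%. Leaving out each library in turn gave log2 fold changes from -2.53 to -2.04, all past both thresholds.

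Ly6c1, the neighbouring paralog known from endothelium, fell as well, from 2.30 ± 0.190 FPKM to 1.05 ± 0.309 FPKM (log2 fold change -1.21, SE 0.216, edgeR adjusted p = 0.00371). It shares 13.9% of the 50-base stretches of Ly6c2 transcripts, so part of the reads of both genes is uncertain. The FPKM ratio of Ly6c2 to Ly6c1 was 16.4, 6.78 and 16.3 in Ctrl and 3.50, 6.82 and 10.4 in l-FA. These ratios overlapped, and the exact permutation test gave p = 0.3. Against Ly6a, the Sca1 gene of the same family, Ly6c2 went from ratios of 2.38, 1.86 and 2.60 to 0.207, 0.322 and 0.328, so the more abundant of the pair per length was Ly6c2 in Ctrl and Ly6a in l-FA. The ratio was 8.07-fold lower with groups apart (exact permutation p = 0.1). Ly6a FPKM was also lowest in Ctrl library 2, at 9.16 against 15.0 and 13.9 in Ctrl libraries 1 and 3.

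Mgst1 (ENSMUSG00000008540, chr6:138117314-138133753), an enzyme of microsomal and mitochondrial membranes that conjugates glutathione and reduces lipid hydroperoxides, had 362, 510 and 543 counts in Ctrl. In l-FA it had 577, 424 and 472 counts. The highest library was in l-FA and the lowest in Ctrl, and the groups overlapped. The level was 24.5 ± 4.87 CPM in Ctrl and 24.1 ± 3.19 CPM in l-FA (n = 3 each). The log2 fold change was -0.02 (SE 0.17, 95% interval -0.43 to 0.38, edgeR adjusted p = 0.920). An interval of this width leaves room for changes of either sign, and it does not reach the changes of the 6 genes that fell. The FPKM ratio of Mgst1 to Ms4a3 within a library was 0.0284, 0.0397 and 0.0386 in Ctrl and 0.259, 0.213 and 0.223 in l-FA, 6.56-fold higher with groups apart (exact permutation p = 0.1). The ratios of Mgst1 to the related transferases Mgst2 and Mgst3 overlapped between groups (exact permutation p = 0.8 and 0.3).

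Nkg7 (ENSMUSG00000004612, chr7:43086497-43087673), known from the granules of natural killer (NK) and T cells and also expressed in GMPs, had 10792, 10103 and 11214 counts in Ctrl. It had 6530, 6049 and 6153 in l-FA, and the groups were apart. The level fell from 556 ± 12.2 CPM to 307 ± 4.80 CPM (n = 3 each), a log2 fold change of -0.86 (SE 0.025, 95% interval -0.92 to -0.80, edgeR adjusted p = 4.3e-06). It passed the adjusted p but not the 2-fold limit, here and under every alternative tried. Summed NK and cytotoxic cell markers were far below Nkg7, at 8.09 to 10.1 CPM in Ctrl and 8.71 to 10.7 CPM in l-FA. Ncr1, Gzma and Tbx21 did not exceed 20 counts in any library. Of 9 such markers 6 were tested, with a median of 0.50. Past both thresholds 1 was lower (Klrb1c, log2 fold change -1.54), against 5.10% of all genes tested, and 2 were higher, against 6.68%. The largest log2 fold change of the 6 was 7.09, and Tbx21 had 0 counts in every Ctrl library.

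**Figure D2:**
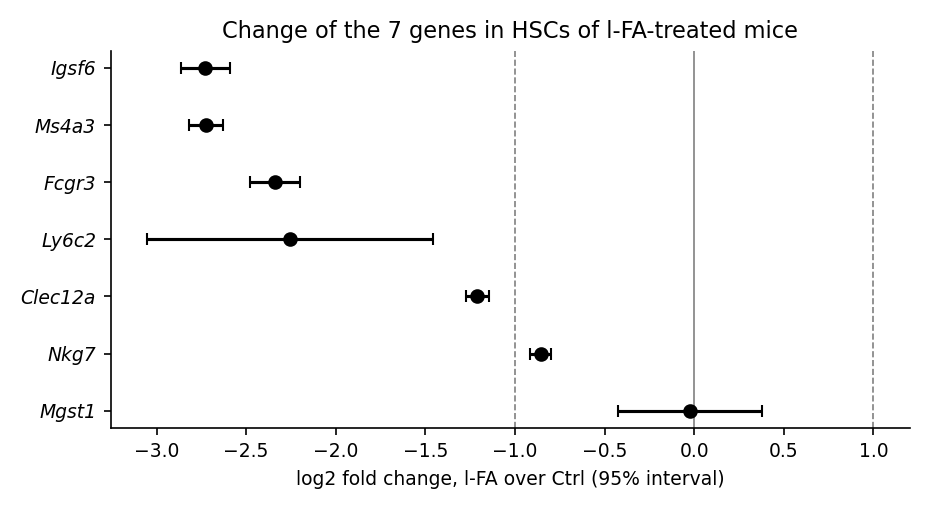
Log2 fold change (l-FA over Ctrl) of the 7 genes with 95% intervals from edgeR, with dashed lines at the 2-fold limit. Igsf6 and Ms4a3 lie lowest at -2.73 and -2.72, Ly6c2 has the widest interval of the genes that fell, Nkg7 sits inside the limit at -0.86, and the Mgst1 interval spans 0.

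Per length, the order of the genes differed between groups. In Ctrl, Nkg7 was highest at 338 ± 8.88 FPKM, then Ms4a3 at 137 ± 4.86 FPKM and Igsf6 at 66.1 ± 0.987 FPKM. Clec12a at 31.5 ± 0.583 FPKM, Ly6c2 at 29.6 ± 10.9 FPKM and Fcgr3 at 27.1 ± 0.136 FPKM followed, and Mgst1 was last at 4.90 ± 0.978 FPKM. Ly6c2 overlapped with both of its neighbours in that order, and the other neighbours were apart in every library. In l-FA, Nkg7 stood at 197 ± 3.64 FPKM and Ms4a3 at 21.9 ± 0.852 FPKM. Clec12a at 14.4 ± 0.120 FPKM was above Igsf6 at 10.5 ± 0.749 FPKM, the reverse of Ctrl. Ly6c2 at 6.54 ± 1.64 FPKM, Fcgr3 at 5.66 ± 0.434 FPKM and Mgst1 at 5.09 ± 0.693 FPKM came last. Fcgr3 overlapped with both Ly6c2 and Mgst1, and the other neighbours were apart.

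FPKM ratios to Ms4a3 within each library, chosen after the values were seen, set the sizes of the changes side by side. The Igsf6 ratio was 0.507, 0.475 and 0.464 in Ctrl and 0.475, 0.533 and 0.436 in l-FA, and the groups overlapped (log2 difference -0.0061, exact permutation p = 1). The Fcgr3 ratio went from 0.204, 0.197 and 0.192 to 0.272, 0.253 and 0.249, 1.3-fold higher, with groups apart. Against Ms4a3, Clec12a was 2.86-fold and Nkg7 3.65-fold higher in l-FA, both with groups apart (exact permutation p = 0.1 for these 3 ratios). Nkg7 was 2.57, 2.38 and 2.42 times Ms4a3 in Ctrl and 8.88, 9.21 and 8.84 times in l-FA. The Ly6c2 ratio overlapped between groups (exact permutation p = 0.3). Mpo, the myeloperoxidase gene of the GMP granule program, lay between them. Ms4a3 was 1.76-fold lower against Mpo in l-FA and Nkg7 2.07-fold higher against it, both with groups apart (exact permutation p = 0.1). The 16 ratios were each tested alone, and at 3 against 3 libraries none could pass an adjustment over them.

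**Figure D3:**
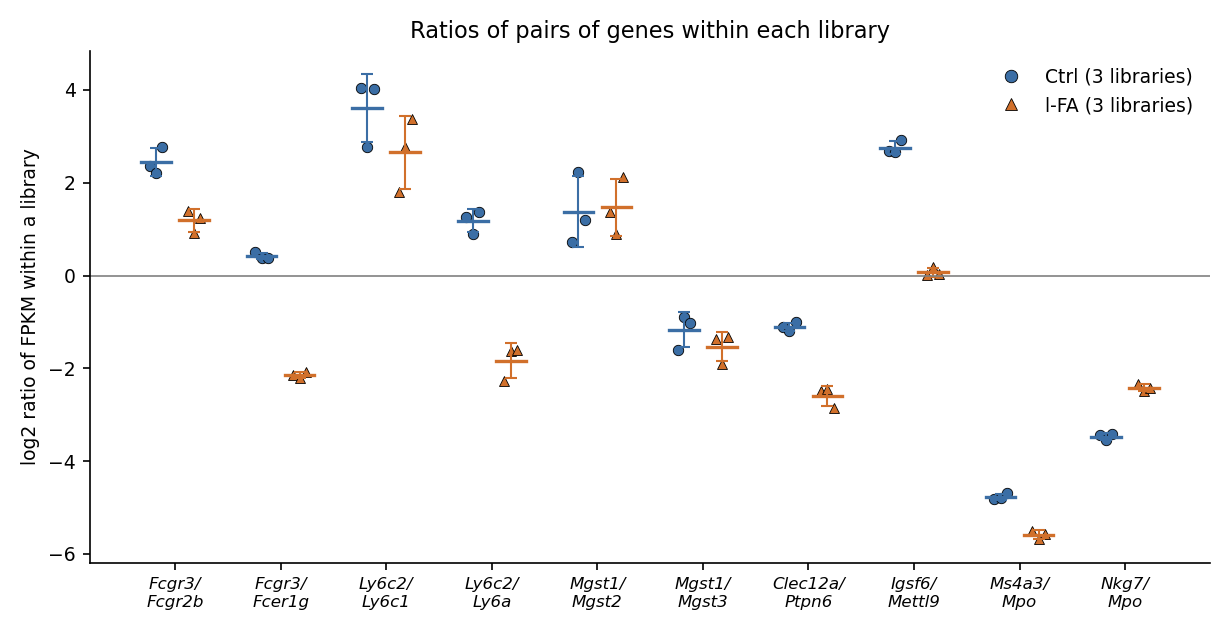
Log2 FPKM ratios within each library for 10 pairs of a member and a related, partner or neighbouring gene, with a point for each of the 3 Ctrl and 3 l-FA libraries, a line at the group mean and whiskers of 1 SD. Groups are apart for Igsf6/Mettl9, Fcgr3/Fcer1g and Ly6c2/Ly6a, and they overlap for Ly6c2/Ly6c1, Mgst1/Mgst2 and Mgst1/Mgst3.

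Relatives of the members moved in both directions. Over all genes tested, 5.10% were lower and 6.68% higher past both thresholds, and 25.0% and 25.5% by adjusted p. Of 9 other Fc receptor genes, 6 were tested, 1 was past both thresholds and lower (Fcgr2b) and 1 higher, Fcer2a, the low-affinity IgE receptor, with 0 counts in every Ctrl library and 16 to 24 in l-FA, at least 5.97-fold higher with 3 counts per library as the floor. Their median log2 fold change was 0.21. Of 10 other MS4A genes 7 were tested, 0 were lower by adjusted p, and Ms4a4c (log2 fold change 1.16) and Ms4a6d (1.07) were higher past both thresholds, so that Ms4a3 was the 1 of 8 tested MS4A genes that passed as lower in this fit. Of 8 other Ly6 genes 4 were tested, and Ly6c1 was the 1 lower past both thresholds. Among 11 tested of 14 other myeloid C-type lectins, Clec5a, which signals through an ITAM adaptor, fell most (log2 fold change -2.94, SE 0.119) and Clec4a2, which has an ITIM, fell too (-1.77, SE 0.223), while Clec1b was higher from 0 counts in Ctrl. Of the 5 other MAPEG enzymes, the family of Mgst1, all were tested, Ptges, which makes prostaglandin E, was lower (-1.79, SE 0.215), and Mgst3 (0.36) and Ltc4s (0.43) were higher by adjusted p alone. None of the 13 ITIM and ITAM signalling genes passed both thresholds, 3 were lower and 4 higher by adjusted p, and their median was 0.02.

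Of 35 other GMP program genes, all tested, 12 passed both thresholds as lower, against 5.10% of all genes tested, and 0 as higher (6.68%). By adjusted p 24 were lower, against 25.0% of all genes tested, and 7 higher, against 25.5%. The median log2 fold change was -0.69. The 12 held the granule protein genes Elane (-2.82), Mpo (-1.91), Ctsg (-1.68), Prtn3 (-1.65) and Prss57 (-1.23), the transcription factor genes Gfi1 (-1.96), Cebpe (-1.79) and Cebpa (-1.37), and Hp (-2.05), Anxa3 (-1.82), Fcnb (-1.54) and Cst7 (-1.06). Ms4a3 and Igsf6 thus lay between Elane and Hp in size.

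**Figure D4:**
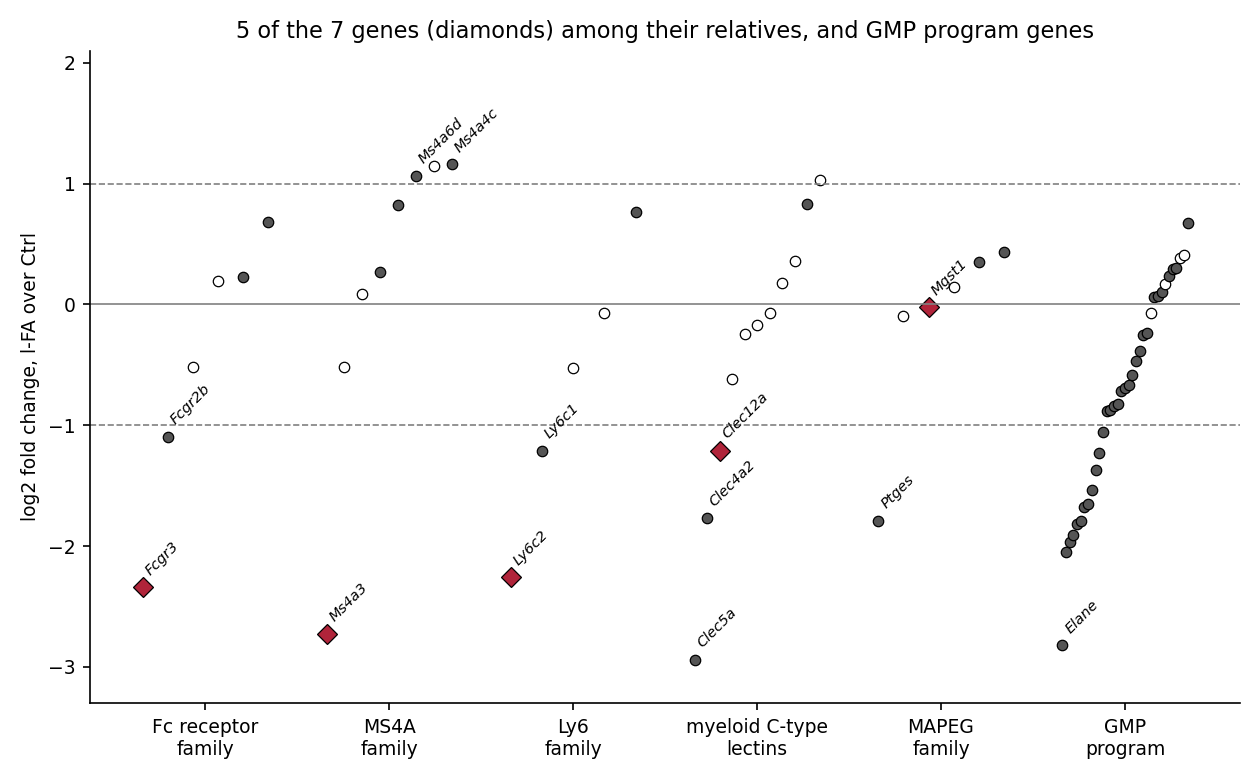
Log2 fold change (l-FA over Ctrl, edgeR) of tested genes of 5 families and of the GMP program. Members are filled diamonds whatever their adjusted p, so the fill of Mgst1 does not mark a pass. Other genes are filled points at an adjusted p under 0.05 and open points above it. Igsf6 and Nkg7 are in none of these lists and are not drawn. Members and relatives past both thresholds are named, Elane is named in the GMP program, dashed lines mark the 2-fold limit, and Fcer2a and Clec1b, at 0 counts in Ctrl, are not drawn.

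Markers of other blood cell types were read beside the 7 genes. The lineage antibodies that the study names bind Gr-1 and Mac-1 on mature myeloid cells, B220 on B cells, CD3ε on T cells and Ter-119 on erythroid cells, and a lineage-negative gate leaves out cells that carry them. Neutrophil markers fell with them: of 10, 9 were tested, and 7 were lower and 0 higher past both thresholds. Over all genes tested, 5.10% were lower and 6.68% higher past both thresholds, and 25.0% and 25.5% by adjusted p. The neutrophil median log2 fold change was -1.11, and the summed level went from 49.9 to 57.3 CPM in Ctrl down to 18.4 to 19.8 CPM in l-FA. Ngp (-1.04), Ltf (-3.16) and S100a8 (-1.54) had the most counts. Ly6g, too low to be tested, had 3, 6 and 8 counts in Ctrl and 0 in every l-FA library. Their part in the lower levels of the 6 genes was not tested. Markers of monocytes and macrophages, cells that also express Ly6c2 and Clec12a, summed to 464 to 472 CPM in Ctrl and 533 to 547 CPM in l-FA. Of 10 such markers 8 were tested, with 2 lower and 0 higher past both thresholds. By adjusted p 3 were lower and 3 higher, and the median log2 fold change was -0.29. Their most counted genes were Lyz2 (0.30), Csf1r (0.10) and Cd68 (-0.12), and Vcan did not exceed 20 counts. The 2 lower past both thresholds were Adgre1 (-3.08, from 4.06 to 0.469 CPM) and Cx3cr1 (-1.05, from 2.96 to 1.42 CPM). Lyz2 alone averaged 310 CPM in Ctrl and 383 CPM in l-FA, and Lyz2, Csf1r, Ccr2 and Ly86 are also on the GMP program list. Of 15 HSC markers 2 were lower and 8 higher by adjusted p, 1 each past both thresholds, with a median of 0.35, Meis1 at 0.04 and Hlf at -0.31. In the other lists more tested genes were higher than lower by adjusted p. Erythroid markers were lower for 1 and higher for 5 of 10 (median 0.51), with that 1 lower and 0 higher past both thresholds. Megakaryocyte markers were higher for 6 of 8 (median 0.57, 2 past both thresholds). Mast cell and basophil markers were higher for 4 of 7 tested among 8 (median 0.38, 1 past both). T cell markers were higher for 2 of 3 tested among 7 (median 0.58, 1 past both). B cell markers were higher for 1 of 4 tested among 8 (median 0.19, 0 past both), near the 25.5% of all genes tested. In these 4 lists 0 tested genes were lower by adjusted p. Ms4a1 and Pax5 (B cell) and Cd8a and Trac (T cell) had at most 20 counts in any library and 0 in every l-FA library.

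The genes outside these lists whose CPM profile over the 6 libraries was nearest to the members' median profile were Rpe, Dgat2, Gda, Cited2 and Ighg2c, chosen from 11313 genes by Euclidean distance of centred log2 CPM (0.288 to 0.454). Their log2 fold changes were -1.77 for Rpe, -2.07 for Dgat2, -1.80 for Gda, -1.68 for Cited2 and -1.89 for Ighg2c. They were picked for this likeness, which is a description over 6 libraries.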

How the data were processed

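RNA of sorted HSCs was sequenced from 3 Ctrl and 3 l-FA libraries. The authors deposited raw counts, in whole numbers and not normalized, and beside them FPKM values for the same genes and libraries. The submitters' processing notes name HISAT2, SAMtools 1.3.1, StringTie, edgeR and the GRCm39 build, without role or order, and the gene annotation and the strand setting of the counting are not given in the sources used here. Gene coordinates are those of the deposited table. Of 25672 gene identifiers shared with GENCODE M21 (GRCm38), 580 had identical coordinates, so the table is on another build than that reference. GENCODE M21 gave gene strands and shared 50-base stretches, and RefSeq (GRCm38.p6) gave the promoter windows, with no coordinates converted. Gene types were those of the deposited table. Protein sequences were not used here.

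Counts of all 27198 genes were fitted with edgeR 4.0.16 in R 4.3.3 (filterByExpr, which left 16520 genes, TMM scaling, quasi-likelihood test, group as the term, Benjamini-Hochberg adjustment over all genes tested). Genes were called at an adjusted p below 0.05 with more than a 2-fold change, as in the study's methods, which name DESeq2. CPM used TMM-scaled library sizes. Levels between genes were compared as FPKM, and ratios of FPKM within a library with exact two-sided permutation tests. The fit was tested on simulated data with known changes. Intervals of 95% are from the fit, and counting error from a Poisson model. No molecular identifiers were used, so amplified copies were counted as separate reads and counting error covers part of the error.

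Genes that could be named were the members, genes of the ratios, sort genes, family, partner and GMP program genes past both thresholds, the 3 most counted genes of each cell type list, and 5 genes of nearest profile among those averaging 100 or more normalized counts. Markers at or near 0, some single markers past both thresholds and GMP program genes higher by adjusted p are named too. Values of some single marker genes are not reported here. The members and lists were chosen with earlier results of these data known. Ratios to Ms4a3 and genes within 100 kb of a member were added after the values were seen. Alternatives were DESeq2 1.42.0, RLE, upper-quartile and library-total scaling, genes without any filter, a minimum of 10 counts in each library, a replicate block, a test against 1.2-fold, limma 3.58.1 on log2(FPKM + 1), and each library left out. Flow cytometry and the other assays of the study were not analysed here.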

Additional observations from a re-analysis of the deposited data

How the results depend on the processing

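Under each of 15 alternatives, 5 of the 7 genes were past both thresholds and lower, and 6 on adjusted p alone, with log2 fold changes of -2.75 to -2.59 for Ms4a3, -2.76 to -2.54 for Igsf6, -1.22 to -1.08 for Clec12a, -2.39 to -2.08 for Fcgr3, -2.53 to -1.97 for Ly6c2, -0.88 to -0.77 for Nkg7 and -0.18 to 0.07 for Mgst1, which never passed. The median log2 fold change of all genes was at most 0.082 under any scaling, against 0.0035. Of the 176 distinct genes in the lists, tested or not, 44 were past both thresholds, with Ms4a3, Fcgr3, Ly6c2 and Clec12a among them. Over all genes tested, 11.8% were past both thresholds in either direction. With limma on log2(FPKM + 1), a scale that shrinks changes of low genes by its construction, 18 list genes were past both thresholds. All genes past both thresholds numbered 1946, against 3335 without the low-count filter, which adds genes, 930 with a minimum of 10 counts per library, which removes genes, and 276 with limma. With FPKM + 1 the log2 ratio change was -2.37 for Fcgr3/Fcer1g (-2.57 without it) and 0.51 for Fcgr3/Ms4a3 (0.38 without it). Deviations of same-numbered libraries correlated at 0.011, -0.011 and -0.069, and those of other pairs at -0.064 to 0.072. These values showed no sign of pairing by number. With 3 libraries a group they cannot tell whether libraries were handled in pairs. With the replicate number as a block, 1852 of all genes, 43 list genes and 5 members were past both thresholds, and 6 members passed on adjusted p. With 3 libraries a group, the precision for Mgst1 was limited by the spread between libraries, which exceeded the counting error.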

Other observations

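Genes within 100 kb of the 7 members were set beside them after the values were seen. Past both thresholds, 5.10% of all genes tested were lower and 6.68% higher. At Igsf6, 2210406H18Rik, an unclassified transcript 107 bases from Igsf6, had 95, 79 and 99 counts in Ctrl and 15, 16 and 16 in l-FA (log2 fold change -2.60, SE 0.15), close in size to Igsf6 at -2.73. Whether its reads belong to Igsf6 transcripts was not tested. At Ly6c2, the pseudogene Gm5960 (-1.51) and Ly6c1 (-1.21) were lower past both thresholds, 2 of 3 tested neighbours, and at Fcgr3 1 of 3 was lower, Fcgr2b. At Nkg7, 0 of 8 tested neighbours were lower past both thresholds and Cd33, a sialic acid binding receptor of myeloid cells, was higher (1.26). At Ms4a3 and Clec12a 0 of 4 tested neighbours each were lower past both thresholds and 1 each was higher, Ms4a6d and Clec1b. Mgst1 had no listed gene within that distance.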
